A study of Mus musculus with 6 samples.

Results

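Epithelial cells are held together by tight junctions, which seal the space between neighbours, by adherens junctions and desmosomes, which tie the actin and keratin networks of neighbouring cells to each other, and by gap junctions, which join their cytoplasms. Apart from the processed pseudogene Cldn34-ps, the 75 genes described here encode parts of these structures. They were taken from a table of 24956 genes by symbol: all claudins, the desmogleins 1 and 2, desmocollins, plakophilins, connexins and ZO proteins, together with Dsp, Jup, Ocln, F11r, Cgn, Cdh1, Cdh17, Ctnna1 and Ctnnd1. RNA was sequenced from intestinal organoids, closed epithelial cultures grown in organoid medium and labelled primary cells, of the genotype Apc Min. In mice this genotype is a nonsense mutation in Apc, the scaffold that marks β-catenin for destruction, and it leads to intestinal tumours. Organoids treated with DM-aKG (dimethyl α-ketoglutarate, a cell-permeable form of the TCA cycle metabolite) were compared with organoids given a control treatment, with 3 libraries each, and both groups carried the Apc Min genotype. What the controls received, the dose, the time and the age of the mice were not given in these sources. Whether the replicates stand for different mice or for repeated cultures is not stated either, so p-values measure only the spread between these samples.

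Claudins are membrane proteins that form the strands of the tight junction. Some seal the strand and others form pores for ions. They are joined to actin through ZO scaffold proteins, among them ZO-1 and ZO-3, the products of Tjp1 and Tjp3. Cadherins bind across the gap between cells and are held from inside by catenins in the adherens junction, or by plakoglobin, plakophilins and desmoplakin in the desmosome. Connexins assemble into the channels of the gap junction. In the gut, claudin 2 and claudin 15 are known as cation pores, claudin 2 mainly of the crypt.

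Junction genes were mostly higher after DM-aKG, and within families single members moved apart. Cldn4, which encodes a claudin of tight barriers, showed the largest change of the tested members and rose 3.30-fold (on the scale of RPKM + 0.5), while Cldn7, the most abundant claudin, did not pass the test and the pore claudin gene Cldn15 fell to 0.811 of the control level. Among the ZO genes Tjp1 rose and Tjp3 fell, and among the plakophilins Pkp1 rose and Pkp2 did not pass the test. The connexin genes Gjb1 and Gjb2 rose together.

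Levels are given in RPKM, read numbers divided by transcript length and by library depth, so they can be compared between genes. A member was tested if its mean over the 6 libraries was at least 1 RPKM, which 29 of the 75 reached. Another 30 lay below that level and 16 were listed at 0 in every library. Of the 29, 20 were higher (69.0%) and 4 lower (13.8%) in DM-aKG by limma at an adjusted p under 0.05, so that 24 were called in either direction. Of all 10852 genes tested, 30.9% were called higher and 24.7% lower, 55.6% in either direction. Of the 28 members whose control mean alone reached 1 RPKM, 19 were higher and 4 lower. Calls with a fold change of at least 1.5 numbered 6 higher and 0 lower among the members, against 7.04% and 4.91% of all genes. In the same 24 members the 3 DM-aKG libraries lay wholly above (20) or wholly below (4) the 3 control libraries, as they did above in 35.3% and below in 28.9% of all genes, 64.2% in either direction. The median log2 fold change of the tested members was 0.30, and that of all tested genes was 0.02. With each library centred on its median, 17 members were higher and 4 lower, and the balance over all genes turned to 2790 higher and 3340 lower, against 3354 and 2679 without centring. In bulk RNA, a change in the number of cells that express a gene and a change in RNA per cell cannot be told apart.

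**Figure D1:**
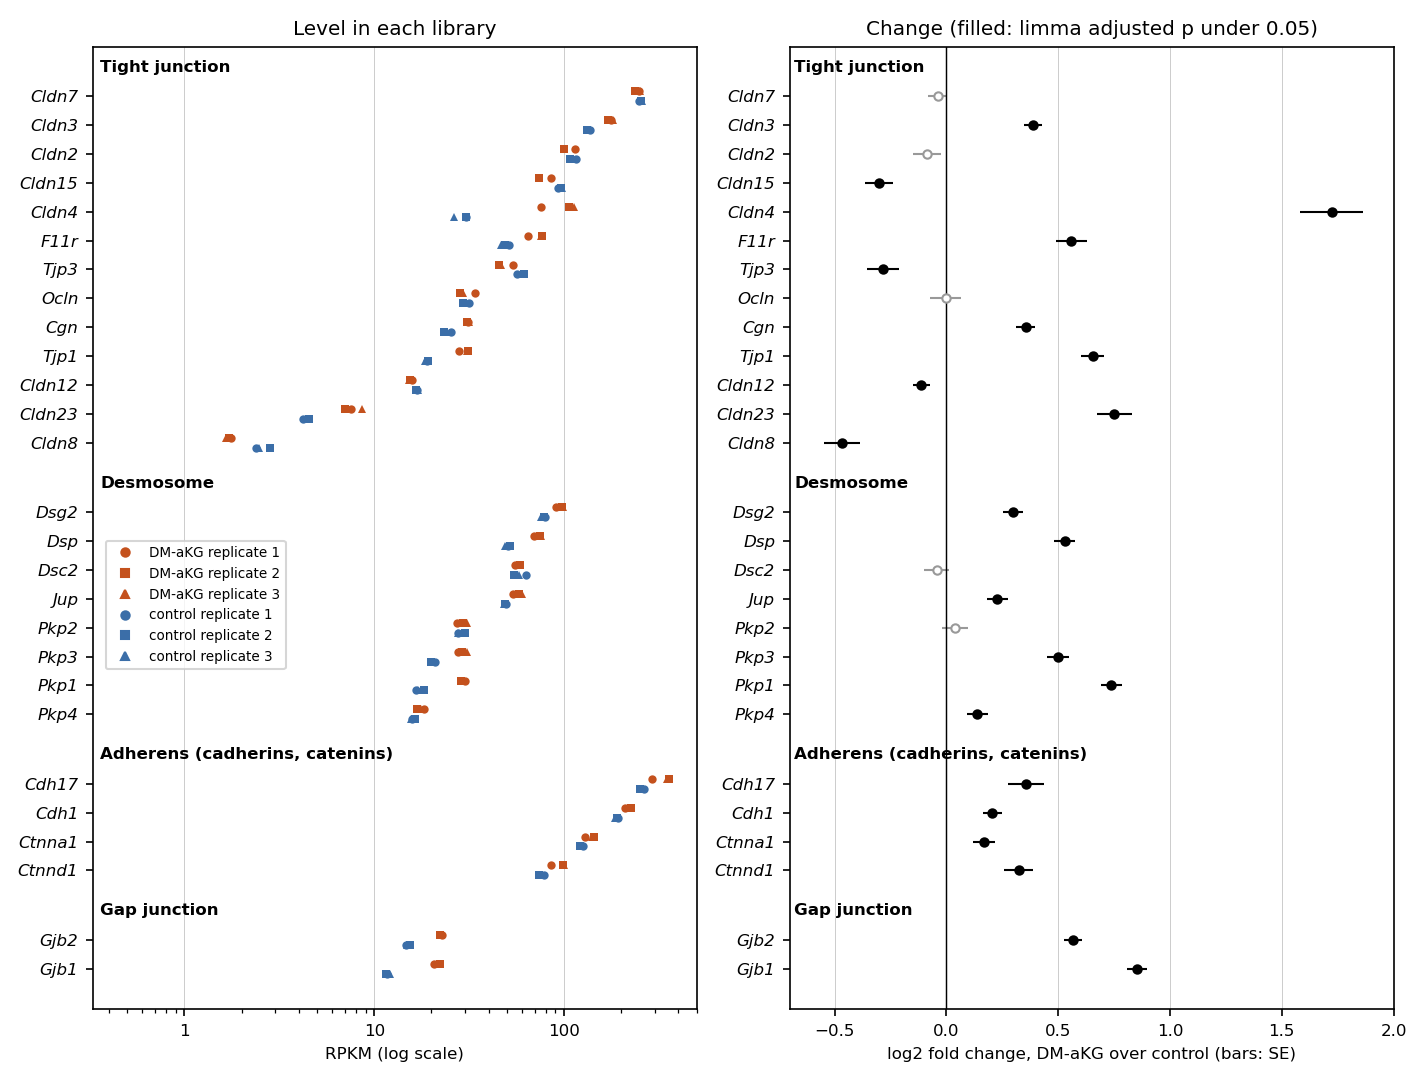
Left, RPKM of the tested members described here in each library on a log axis, DM-aKG (orange) above control (blue), grouped by junction type and ordered by mean level. Right, log2 fold change of DM-aKG over control with its SE, where filled points are calls by limma; more of them lie right of 0 than left of it, with Cldn4 farthest out at 1.72.

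The cultures carried the markers of intestinal epithelium, with Epcam, Vil1, Krt8, Krt18, Krt19, Cdx1 and Cdx2 summing to 3273 to 4170 RPKM in DM-aKG and 2477 to 2526 RPKM in control. Most of that sum was keratin RNA, and the markers did not move together. Vil1, Krt8, Krt18 and Krt19 were called higher (4 of 7) and Epcam, Cdx1 and Cdx2 lower (3 of 7). Of all genes tested, 30.9% were called higher and 24.7% lower. Fibroblast markers summed to at most 0.04 RPKM in any library, with Col3a1, Dcn and Lum at 0, and endothelial markers to at most 0.40 RPKM, with Kdr, Cdh5 and Emcn at 0. The stratified squamous epithelium list (Trp63, Krt5, Krt14, Krt13, Krt4, Krt6a, Ivl and Lor) summed to 0.64 to 0.97 RPKM in DM-aKG and 0.11 to 0.17 RPKM in control. Immune markers summed to 2.12 to 3.27 RPKM in DM-aKG and 1.27 to 1.56 RPKM in control, nearly all of it Cd68 and Itgam, and glial markers to 1.02 to 1.27 RPKM in DM-aKG and 0.61 to 0.73 RPKM in control, with Sox10 at 0.01 RPKM or less. Paneth cell markers differed within the treated group, with sums of 1695, 745 and 717 RPKM in DM-aKG replicates 1, 2 and 3 and 2234 to 2919 RPKM in control. Of 7 Paneth genes 6 were called lower, and of 6 goblet genes 6, against 24.7% of all genes tested. Goblet cell markers summed to 642, 486 and 492 RPKM in the same DM-aKG libraries and 1379 to 1500 RPKM in control. DM-aKG replicate 1 was also the DM-aKG library nearest to the controls in 18 of the 24 called junction members, and in 65.5% of the 6033 genes called over the whole table. The part of these cell types in the results on junction genes was not tested.

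Cldn4 stood at 75.7, 106 and 112 RPKM in the DM-aKG libraries and at 30.3, 30.4 and 26.3 RPKM in the control libraries. All DM-aKG libraries lay far above all controls, with replicate 1 the lowest of them. The difference on the log2 scale was 1.72 ± 0.14 (SE; adjusted p = 6.85e-05 by limma), and without DM-aKG replicate 1 it was 1.90. Cldn3, whose protein is a sealing claudin that like claudin 4 binds the enterotoxin of Clostridium perfringens, was at 177, 169 and 181 RPKM in DM-aKG and 136, 132 and 134 RPKM in control. The groups were far apart relative to their spread, with a difference of 0.39 ± 0.04 on the log2 scale (SE; adjusted p = 2.25e-04 by limma). Cldn23, a claudin gene of differentiated intestinal cells, rose at a lower level, to 7.57, 7.04 and 8.64 RPKM in DM-aKG against 4.20, 4.54 and 4.42 RPKM in control (log2 fold change 0.75 ± 0.08, SE; limma, adjusted p = 1.91e-04).

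Of the genes for pore-forming claudins, Cldn15 fell and Cldn2 did not pass the test. Cldn15 was at 85.3, 73.5 and 73.3 RPKM in DM-aKG and 92.8, 95.8 and 97.4 RPKM in control (log2 fold change -0.30 ± 0.06, SE; limma, adjusted p = 0.00494). The fall was present in all DM-aKG libraries and smallest in replicate 1. Cldn2 was at 115, 100.2 and 99.4 RPKM in DM-aKG and 115, 107 and 111 RPKM in control. DM-aKG replicate 1 lay within the control range and the other treated libraries below it, so the groups overlapped (log2 fold change -0.09, 95% interval -0.23 to 0.06; limma, adjusted p = 0.266). Without DM-aKG replicate 1 the gene Cldn2 was called lower, with a log2 fold change of -0.15 (limma, adjusted p = 0.0101). Cldn7, whose protein lines the basolateral membrane of enterocytes and binds EpCAM, was at 249, 237 and 251 RPKM in DM-aKG and 248, 253 and 256 RPKM in control (log2 fold change -0.04, 95% interval -0.14 to 0.06; limma, adjusted p = 0.451). Its interval leaves room for only a small change in either direction.

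Among the less abundant claudins, Cldn8, which encodes a barrier claudin of the colon and the distal nephron, fell to 1.76, 1.72 and 1.65 RPKM in DM-aKG, against 2.39, 2.82 and 2.46 RPKM in control (log2 fold change -0.47 ± 0.08, SE; limma, adjusted p = 0.00209). Cldn12, linked to calcium uptake between cells, averaged 15.5 ± 0.261 RPKM in DM-aKG and 16.8 ± 0.167 RPKM in control (mean ± SD, n = 3 each). That fall was small, and its call was lost when any single library other than DM-aKG replicate 1 was left out. It was also lost with the replicate number as a block (limma, adjusted p = 0.0741) and without the variance trend (limma, adjusted p = 0.0526).

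The make-up of the claudin transcripts shifted with Cldn4. Summed over all 32 claudin genes, the level was 728, 712 and 743 RPKM in DM-aKG and 647, 643 and 649 RPKM in control. Cldn7, Cldn3, Cldn2, Cldn15 and Cldn4 together held 96.3% to 96.4% of that sum in DM-aKG and 96.1% to 96.2% in control. The share of Cldn4 was 10.4%, 14.95% and 15.1% in the DM-aKG libraries and 4.68%, 4.73% and 4.04% in the control libraries. In DM-aKG replicates 2 and 3 Cldn4 thus passed Cldn2 and Cldn15 in level, and in replicate 1 it stayed below both. Cldn15 held 10.6% ± 0.959 of the sum in DM-aKG and 14.7% ± 0.3603 in control, and Cldn7 held 33.7% ± 0.437 in DM-aKG and 39.0% ± 0.601 in control (mean ± SD, n = 3 each), although the level of Cldn7 itself overlapped between groups.

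**Figure D2:**
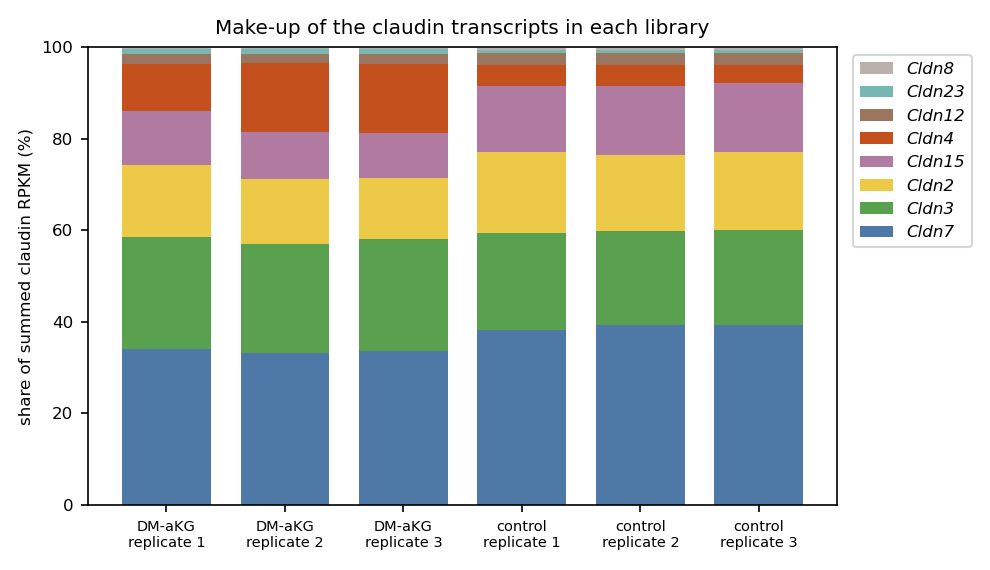
Share of each of the 8 tested claudin genes in the summed claudin RPKM of a library, in percent, for the 3 DM-aKG libraries (left) and the 3 control libraries (right). The band of Cldn4 is 10.4% to 15.1% of the bar in DM-aKG and 4.04% to 4.73% in control, while the bands of Cldn7, Cldn2 and Cldn15 are narrower in DM-aKG.

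Cldn4 and Cldn3 are neighbours on mouse chromosome 5, where Cldn4 spans 134945119 to 134946934 (minus strand) and Cldn3 134986214 to 134987472 (plus strand) of GRCm38, the assembly named mm10, with 39279 bases between them and divergent orientation. Cldn13, listed at 0.03 RPKM or less, lies 29592 bases from Cldn4 on its other side. Cldn15 is on the same chromosome, farther away. The 250 bases before the annotated start of each (RefSeq, GRCm38.p6) are shown for the neighbours that rose and for the pore claudin gene that fell, each 5′ to 3′ on the strand of its gene, with capitals at matches to the AP-1 motif TGANTCA, the site of Fos and Jun dimers. They are chr5:134946935-134947184 (minus strand) for Cldn4, chr5:134985964-134986213 (plus strand) for Cldn3 and chr5:136967619-136967868 (plus strand) for Cldn15. In the gene positions used here (GENCODE M21), Cldn15 begins earlier, at 136966616, so its window lies inside that gene. The windows of Cldn4 and Cldn3 adjoin the starts in both annotations.
Cldn4: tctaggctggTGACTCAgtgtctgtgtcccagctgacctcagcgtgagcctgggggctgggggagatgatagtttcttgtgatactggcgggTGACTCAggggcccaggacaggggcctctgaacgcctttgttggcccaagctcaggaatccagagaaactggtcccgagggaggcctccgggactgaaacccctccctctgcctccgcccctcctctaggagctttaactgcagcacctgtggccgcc
Cldn3: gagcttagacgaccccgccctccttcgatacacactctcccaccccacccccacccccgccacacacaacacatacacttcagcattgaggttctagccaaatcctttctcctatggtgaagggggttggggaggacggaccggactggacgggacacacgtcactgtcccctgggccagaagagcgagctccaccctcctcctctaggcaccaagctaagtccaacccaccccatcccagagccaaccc
Cldn15: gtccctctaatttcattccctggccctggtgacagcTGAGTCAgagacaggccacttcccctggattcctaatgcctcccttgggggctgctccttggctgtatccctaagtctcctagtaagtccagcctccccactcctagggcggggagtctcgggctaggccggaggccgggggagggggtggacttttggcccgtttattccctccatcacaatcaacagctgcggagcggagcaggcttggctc

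The Cldn4 window held the AP-1 letters at 2 places, at -240 to -234 and -158 to -152 from the start, the Cldn15 window at -214 to -208, and the Cldn3 window had no match. Over all 32851 windows of this length, 6.75% held the motif on either strand and 0.338% held it at 2 or more places, and 7.82% of the 27025 genes held it in any of their windows. Of the 29 tested members 17 had windows in the RefSeq table, and the motif stood in 2 of 11 that rose (Cldn4 and F11r), in 1 of 3 that fell (Cldn15) and in 0 of 3 that were not called. The GC box GGGCGG, a site of Sp and Klf factors, stood in 10 of the 11 that rose, 2 of the 3 that fell and 2 of the 3 not called, in any of a gene's windows, and in 35.4% of all genes with windows (32.7% of windows). The E-box CAGGTG, which Snail-type repressors bind, stood in 5 of the 11, 1 of the 3 and 2 of the 3, and in 19.4% of all genes (17.2% of windows). AACCNGTT, the motif of Grainyhead-like factors, stood among these members in the window of Cgn alone and in 2.0% of all genes (1.79% of windows). These are matches of letters on either strand, none of which overlap another motif in the printed windows, and not measured binding. The shares over all genes were taken without regard to expression, whereas the tested members passed the filter, so these sets are not matched.

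Transcripts of the plaque proteins beneath the claudins moved in both directions. Tjp1, which encodes ZO-1, was at 28.1, 31.2 and 30.6 RPKM in DM-aKG and 19.0, 19.1 and 18.4 RPKM in control (log2 fold change 0.65 ± 0.05, SE; limma, adjusted p = 5.32e-05). Tjp3, the gene for ZO-3, was at 54.0, 45.4 and 46.3 RPKM in DM-aKG and 56.2, 61.2 and 59.8 RPKM in control (log2 fold change -0.28 ± 0.07, SE; limma, adjusted p = 0.0110). The gap between the groups was wide for Tjp1, whereas for Tjp3 DM-aKG replicate 1 came close to the lowest control. Tjp3 was higher than Tjp1 in every library of both groups.

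F11r encodes JAM-A, an immunoglobulin-type adhesion protein of the tight junction. It rose to 64.7, 76.3 and 75.4 RPKM in DM-aKG, against 51.2, 48.6 and 46.3 RPKM in control (log2 fold change 0.56 ± 0.07, SE; limma, adjusted p = 4.72e-04). Cgn, the gene of the plaque protein cingulin, was at 31.0, 31.0 and 31.5 RPKM in DM-aKG and 25.4, 23.4 and 24.0 RPKM in control (log2 fold change 0.35 ± 0.04, SE; limma, adjusted p = 4.15e-04). The DM-aKG libraries were nearly equal and all above the controls. Ocln, for occludin, averaged 30.5 ± 2.92 RPKM in DM-aKG and 30.5 ± 1.20 RPKM in control (mean ± SD, n = 3 each), with a 95% interval of the log2 fold change from -0.16 to 0.16. Over the whole tight junction set, 7 of 14 tested members were higher, 4 lower (28.6%) and 3 not called, against 30.9% higher and 24.7% lower of all genes tested, so that the share of lower calls was near that of all genes, with a median log2 fold change of 0.10.

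**Figure D3:**
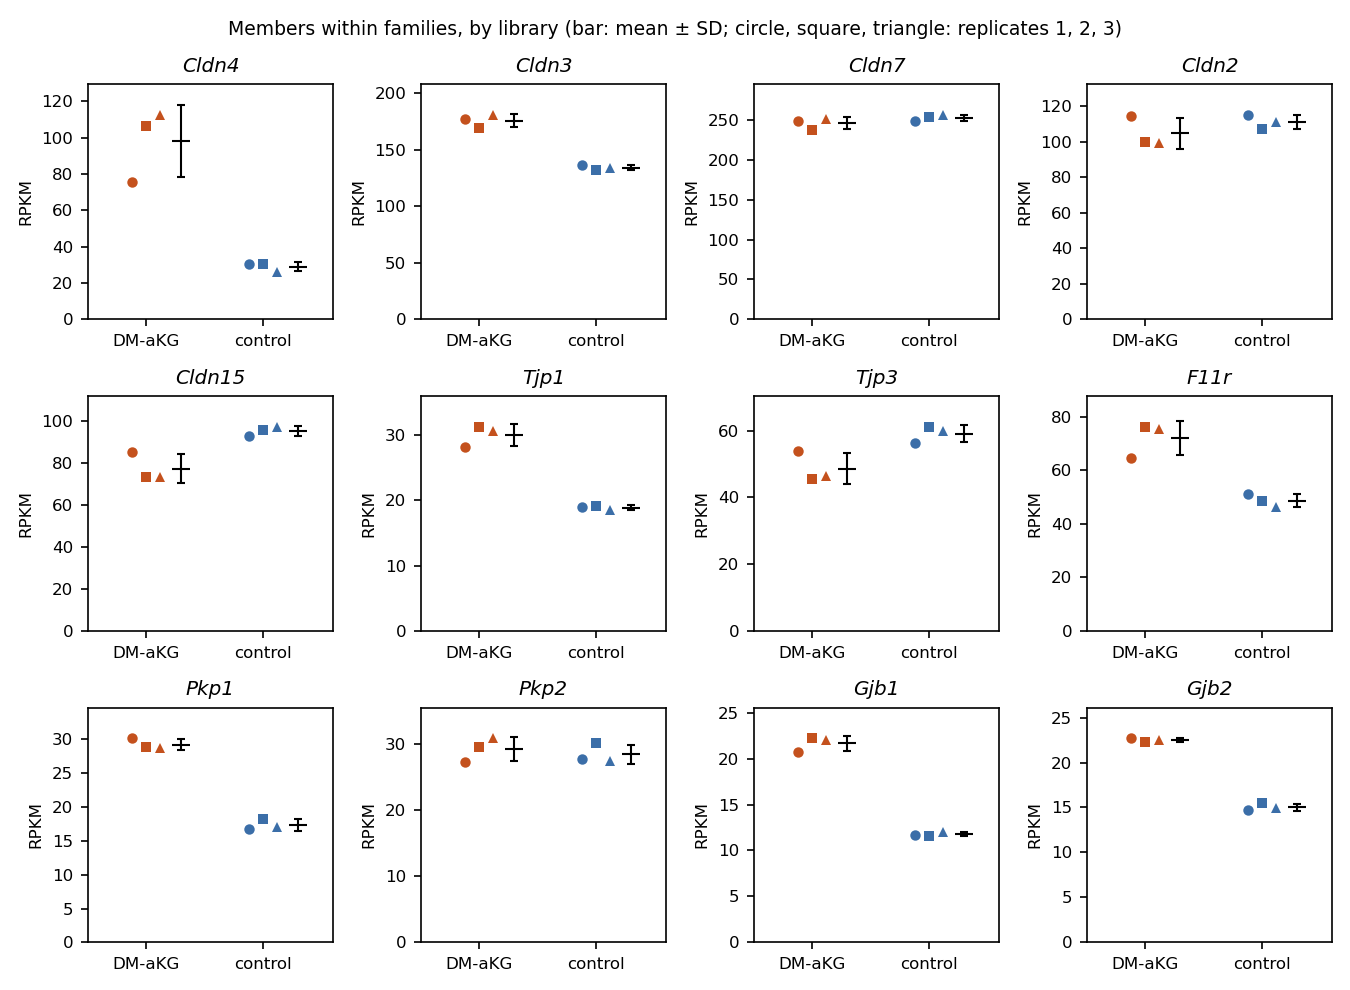
RPKM of 12 members by library on axes that start at 0, DM-aKG left (orange) and control right (blue), with the mean and SD beside the points. Cldn4, Cldn3, Tjp1, F11r, Pkp1, Gjb1 and Gjb2 are separated upward, Cldn15 and Tjp3 downward, and Cldn7, Cldn2 and Pkp2 overlap.

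In the desmosome, 6 of 8 tested members were higher and 0 lower, against 30.9% and 24.7% of all genes tested, with a median log2 fold change of 0.26. Dsp encodes desmoplakin, which ties the plaque to keratin filaments. It was at 69.1, 74.3 and 75.4 RPKM in DM-aKG and 50.7, 51.8 and 48.6 RPKM in control (log2 fold change 0.53 ± 0.05, SE; limma, adjusted p = 1.10e-04). The cadherin pair of simple epithelia split. Dsg2, for desmoglein 2, rose to 91.0, 97.6 and 98.4 RPKM in DM-aKG, against 79.5, 78.0 and 75.7 RPKM in control (log2 fold change 0.30 ± 0.05, SE; limma, adjusted p = 0.00113). Its partner Dsc2, for desmocollin 2, averaged 56.6 ± 1.70 RPKM in DM-aKG and 58.5 ± 4.29 RPKM in control (mean ± SD, n = 3 each), with overlapping groups and a 95% interval of the log2 fold change from -0.18 to 0.09. The other 5 members of these families, Dsc1, Dsc3, Dsg1a, Dsg1b and Dsg1c, were listed at no more than 0.09 RPKM in any library. Dsg2 and Dsc2 were thus the only desmosomal cadherins among the members above the filter.

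Plakophilins are armadillo-repeat proteins that cluster desmosomal cadherins. Pkp1, best known from stratified epithelia, was at 30.1, 28.8 and 28.7 RPKM in DM-aKG and 16.7, 18.3 and 17.0 RPKM in control (log2 fold change 0.74 ± 0.05, SE; limma, adjusted p = 2.83e-05). Pkp3, expressed in most epithelia, rose to 27.7, 29.0 and 30.8 RPKM in DM-aKG, against 20.9, 19.8 and 20.8 RPKM in control (log2 fold change 0.50 ± 0.05, SE; limma, adjusted p = 1.74e-04). Pkp2, the form of simple epithelia and heart, averaged 29.3 ± 1.79 RPKM in DM-aKG and 28.5 ± 1.47 RPKM in control (mean ± SD, n = 3 each), with overlapping groups and a 95% interval of the log2 fold change from -0.10 to 0.17. Without control replicate 2 and DM-aKG replicate 1 together, Pkp2 was called higher (log2 fold change 0.13; limma, adjusted p = 0.0285). In control Pkp2 was the highest plakophilin in every library, with 34.6% ± 0.880 of the plakophilin sum. In DM-aKG the mean levels of Pkp1, Pkp2 and Pkp3 were 29.2, 29.3 and 29.1 RPKM, and their libraries overlapped, so no order can be read. Pkp4, a relative found also at adherens junctions, averaged 17.6 ± 0.755 RPKM in DM-aKG and 15.9 ± 0.417 RPKM in control (mean ± SD, n = 3 each). It was called higher (limma, adjusted p = 0.0370). That call was lost after median centring (limma, adjusted p = 0.118), after quantile normalization (0.187), without the variance trend (0.0501) and with the replicate number as a block (0.0687). It was also lost without control replicate 1 or 3 or DM-aKG replicate 1 or 3 (0.0603 to 0.126). Jup, for plakoglobin, which serves both desmosomes and adherens junctions, rose to 53.7, 57.5 and 60.2 RPKM in DM-aKG, against 49.2, 48.7 and 48.0 RPKM in control (log2 fold change 0.23 ± 0.05, SE; limma, adjusted p = 0.00526).

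The cadherins and catenins were among the most abundant members, and all 4 were called higher (30.9% of all genes were), with fold changes of 1.12 to 1.28. Cdh17 encodes the liver-intestine cadherin, which lies along the lateral membrane and has no catenin-binding tail. It was at 289, 355 and 350.2 RPKM in DM-aKG and 265, 251 and 257 RPKM in control (log2 fold change 0.36 ± 0.08, SE; limma, adjusted p = 0.00668). DM-aKG replicates 2 and 3 stood well above replicate 1, which was itself above every control. Cdh1, for E-cadherin, was at 210.3, 226 and 218 RPKM in DM-aKG and 192, 190.2 and 185 RPKM in control (log2 fold change 0.21 ± 0.04, SE; limma, adjusted p = 0.00508). Ctnnd1, for p120 catenin, which keeps cadherins at the surface, rose to 85.3, 98.3 and 100.1 RPKM in DM-aKG, against 78.2, 73.7 and 74.0 RPKM in control (log2 fold change 0.32 ± 0.07, SE; limma, adjusted p = 0.00416). Ctnna1, for α-catenin, the link to actin, averaged 138 ± 7.61 RPKM in DM-aKG and 122 ± 2.69 RPKM in control (mean ± SD, n = 3 each; limma, adjusted p = 0.0215), and was not called after median centring (limma, adjusted p = 0.0823) or without control replicate 2 or 3 or DM-aKG replicate 2 or 3 (0.0641 to 0.0814). The sum over these genes was 714, 822 and 809 RPKM in DM-aKG and 660.4, 636 and 637 RPKM in control, with DM-aKG replicate 1 the nearest to control.

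Of 20 connexin genes 3 passed the filter, and the most abundant of them, Gjb1 and Gjb2, were called higher. Gjb1, for connexin 32, was at 20.7, 22.2 and 22.1 RPKM in DM-aKG and 11.65, 11.6 and 12.04 RPKM in control (log2 fold change 0.85 ± 0.04, SE; limma, adjusted p = 9.99e-06). Gjb2, for connexin 26, was at 22.7, 22.3 and 22.5 RPKM in DM-aKG and 14.7, 15.5 and 14.9 RPKM in control (log2 fold change 0.57 ± 0.04, SE; limma, adjusted p = 3.76e-05). The spread within a group was small beside the difference for both genes, DM-aKG replicate 1 included. Gjb2 was above Gjb1 in every library of both groups. In DM-aKG their levels were within 0.5 RPKM of each other in replicates 2 and 3, but not in replicate 1 (22.7 and 20.7 RPKM).

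Most other connexin genes had next to no RNA. In the cluster on chromosome 14, Gjb2 rose while its neighbours Gjb6 and Gja3 were at 0.03 RPKM or less. Gjb5, a connexin gene known mainly from skin, was at 0.05, 0.05 and 0.09 RPKM in DM-aKG and 0.02, 0 and 0.02 RPKM in control. Its groups did not overlap, though it stayed near 0. Gja4 was at 0.07 RPKM or less with overlapping groups.

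**Figure D4:**
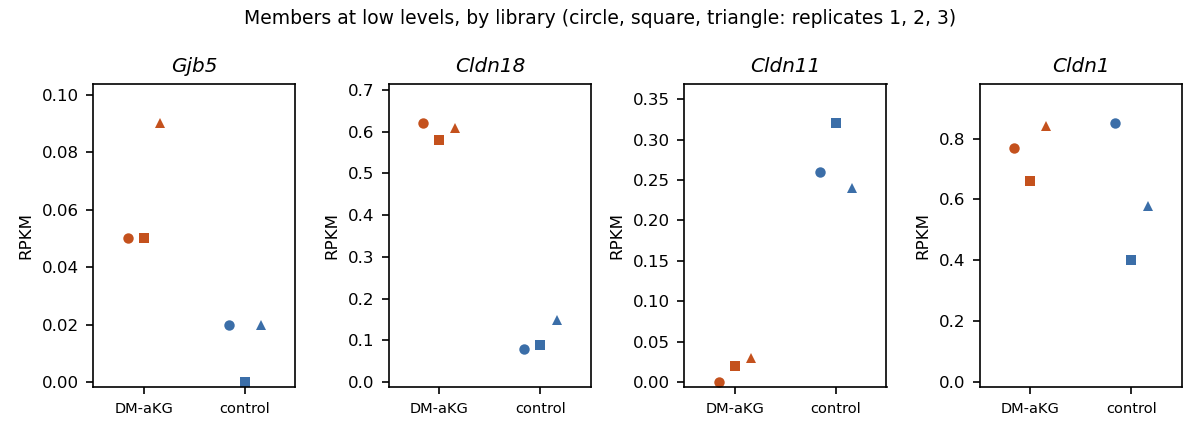
RPKM of 4 members at low levels by library, each on its own linear axis from 0, DM-aKG left (orange) and control right (blue). Gjb5 and Cldn18 are separated upward, Cldn11 downward, and Cldn1 overlaps between groups.

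The remaining untested members showed little RNA, at no more than 0.85 RPKM in any library. Cldn18, a claudin gene of stomach and lung, was at 0.62, 0.58 and 0.61 RPKM in DM-aKG and 0.08, 0.09 and 0.15 RPKM in control, with no overlap. Cldn11, known from myelin and testis, was at 0, 0.02 and 0.03 RPKM in DM-aKG and 0.26, 0.32 and 0.24 RPKM in control, again without overlap. Cldn1, a skin barrier claudin gene, was at 0.77, 0.66 and 0.84 RPKM in DM-aKG and 0.85, 0.40 and 0.58 RPKM in control, with overlap. Without the filter, Cldn18 (limma, adjusted p = 2.67e-04) and Gjb5 (0.0302) were called higher and Cldn11 (5.10e-04) and Dsg1c (0.0269) lower. Most members below the filter were not called in that fit, where 20.6% of all 18343 genes were called higher and 15.4% lower. Dsg1c was at 0.01, 0 and 0.02 RPKM in DM-aKG and 0.09, 0.06 and 0.04 RPKM in control, near 0 in both groups. The endothelial claudin gene Cldn5 was among the 16 members listed at 0 throughout, with Cldn10, Cldn17, Cldn22, Cldn24, 8 genes of the Cldn34 group (the pseudogene Cldn34-ps among them), Gja10, Gjc1 and Gjd4. The heart connexin gene Gja1 was at 0.04 to 0.05 RPKM in DM-aKG and 0.04 to 0.17 RPKM in control.

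Other genes of the same structures or related to them, in a list of 45 that are not members, had 31 tested. Of these, 16 were higher and 7 lower (51.6% and 22.6%), against the 30.9% and 24.7% of all genes. Of the 30 with a control mean of at least 1 RPKM, 15 were higher and 7 lower. Of the desmosome genes of that list, 3 reached that control level and were called higher. Perp, a membrane protein of desmosomes and a p53 target, rose to 106 ± 3.28 RPKM in DM-aKG, against 55.8 ± 2.72 RPKM in control, and the plakin genes Ppl and Evpl rose to 12.1 ± 0.223 and 4.81 ± 0.338 RPKM in DM-aKG, against 4.65 ± 0.337 and 2.71 ± 0.115 RPKM in control (mean ± SD, n = 3 each, here and below). Dsg3, a desmosomal cadherin gene of stratified epithelia, was at 11.4, 3.70 and 3.99 RPKM in DM-aKG and 0.37, 0.19 and 0.24 RPKM in control, with replicate 1 the highest, and passed the filter only through its level in DM-aKG.

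At tight junctions 7 of 18 tested genes of the list were higher and 3 lower (38.9% and 16.7%, against 30.9% and 24.7% of all genes). The largest rise was in Ildr1, which encodes a receptor placed where 3 cells meet, at 22.1 ± 1.96 RPKM in DM-aKG and 8.50 ± 0.251 RPKM in control (limma, adjusted p = 8.00e-06). The polarity gene Pard6b was at 31.7 ± 3.76 RPKM in DM-aKG and 16.5 ± 0.475 RPKM in control, and Tjap1, for a tight junction associated protein, at 14.4 ± 0.119 RPKM in DM-aKG and 10.8 ± 0.382 RPKM in control. The scaffold genes Magi1 and Magi3 and the atypical kinase gene Prkcz fell, by 0.35, 0.26 and 0.27 on the log2 scale. In the adherens junction group of the list, which also counts Epcam although its protein binds claudin 7, 5 of 8 were higher and 3 lower (62.5% and 37.5%). Afdn, for afadin, was at 28.2 ± 1.10 RPKM in DM-aKG and 19.5 ± 0.676 RPKM in control, Vcl, for vinculin, at 26.8 ± 1.69 RPKM in DM-aKG and 19.1 ± 1.05 RPKM in control, and Ctnnb1, for β-catenin, at 266 ± 15.8 RPKM in DM-aKG and 223 ± 7.32 RPKM in control. The genes that fell were Epcam, at 334 ± 7.12 RPKM in DM-aKG and 421 ± 4.48 RPKM in control, Nectin1, at 7.59 ± 0.443 RPKM in DM-aKG and 10.35 ± 0.346 RPKM in control, and Nectin3, at 30.0 ± 1.07 RPKM in DM-aKG and 41.1 ± 3.96 RPKM in control. Cldn7, the gene of the partner of EpCAM, was not called, with the interval given above. Panx1, for a pannexin channel, averaged 5.43 ± 0.390 RPKM in DM-aKG and 7.21 ± 0.0721 RPKM in control and was called lower (limma, adjusted p = 0.00135).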

How the data were processed

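The authors deposited 1 table of RPKM values with 2 decimals for 24956 genes in 6 libraries, and each column was matched to its sample by title. HISAT2 2.0.4, CASAVA 1.8, the Partek software and the build mm10 are listed in the submitters' processing notes. Their roles, the annotation, the counting rule and strand use were not given there. From short RNA genes, where 1 read is a large step in RPKM, the depth of each library was estimated, with 75.0% to 87.2% of the other low values whole within 0.05 reads. A transcript of 1 kb at 1 RPKM then stands for 32.7 to 34.3 reads, a counting error of 17.1% to 17.5%.

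Values were analysed as log2(RPKM + 0.5), which understates changes of low genes, in genes with a mean of at least 1 RPKM. limma 3.58.1 in R 4.3.3 (eBayes with trend, two-sided, no replicate term) was fitted on all 10852 genes, with Benjamini-Hochberg adjustment over them. In simulated data on these genes, 34%, 90%, 96% and 100% of changes of 0.25, 0.5, 1 and 2 (log2) were called, with 4 false calls. Only 50 genes were changed at each size there, whereas 55.6% of the genes were called in the real data. The adjustment is stricter when few genes change, so these shares and false calls do not carry over to the real comparison. Members, lists and the rule for named genes (tested members, and up to 3 genes per direction and junction type of the related list, with Dsg3 added after its values were seen) were chosen with earlier results of these data known. The labels do not say whether replicate numbers pair the samples, and the main fit did not use them to do so. Positions come from GENCODE M21, promoters from RefSeq. Summaries and figures were made in Python 3.11.15 (pandas 2.3.3, numpy 2.4.6, matplotlib 3.10.9). Some genes that the rule names are not reported here.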

Additional observations from a re-analysis of the deposited data

How the results depend on the processing

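Over 15 alternatives (median centring, quantile normalization, pseudocounts of 0.1 and 1, no filter or a filter at 0.3 RPKM, no variance trend, the replicate number as a block, each library left out, and control replicate 2 and DM-aKG replicate 1 left out together), 17 to 23 members were higher and 3 to 6 lower, against 20 and 4. Over the same alternatives, 20.6% to 34.3% of all tested genes were higher and 15.4% to 30.8% lower. The 23 and 6 came from the fit without a filter, which tested 59 members rather than 29. Of all genes in that fit, 20.6% were higher and 15.4% lower. Leaving out single libraries gave 17 to 19 higher and 3 to 5 lower of 29 tested members. Of all genes in those fits, 24.8% to 33.7% were higher and 18.9% to 29.5% lower. No called member changed sign in these alternatives. Of 435 values of single members, 406 stayed on their side of the threshold, 26 lost a call (among them Pkp4 in 8 alternatives, Cldn12 in 7 and Ctnna1 in 5) and 3 gained one (Cldn2 in 2 and Pkp2 in 1); the cause was not tested. The replicate block gave 19 higher and 3 lower members, with 29.5% of all genes higher and 23.4% lower. The correlation of deviations between same-numbered libraries was -0.08, -0.11 and 0.01, and no library correlated best with its own number. Values under 1 RPKM rest on few reads and on 2 decimals.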

Other observations

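Transcription factors linked to junction genes were measured in the same libraries, in a list of 15. The repressors of E-cadherin Snai1, Snai2, Zeb1, Zeb2 and Twist1 were all below the filter, with sums of 0.06 to 0.15 RPKM in DM-aKG and 0.32 to 0.46 RPKM in control. Most of that was Snai2, at 0.13, 0.01 and 0.05 RPKM in DM-aKG and 0.30, 0.44 and 0.36 RPKM in control, without overlap. Of 8 tested epithelial factors, 3 were higher and 4 lower, against 30.9% and 24.7% of all genes tested. Grhl1, a Grainyhead-like factor gene, was at 3.21, 3.54 and 3.46 RPKM in DM-aKG and 1.53, 1.12 and 1.10 RPKM in control (log2 fold change 1.17 ± 0.11, SE; limma, adjusted p = 1.16e-04). Its relative Grhl2, which in mouse is known to activate Cldn4 and Cdh1, was lower, at 8.87, 8.16 and 7.98 RPKM in DM-aKG and 9.48, 9.59 and 9.43 RPKM in control (limma, adjusted p = 0.0198). Grhl3 was below the filter, at 1.48, 1.05 and 0.96 RPKM in DM-aKG and 0.28, 0.48 and 0.40 RPKM in control, without overlap.

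Of the factors of intestinal identity, Cdx1, Cdx2 and Hnf4a were called lower. Cdx2 stood at 50.8, 34.9 and 36.0 RPKM in DM-aKG and 70.0, 68.4 and 72.4 RPKM in control, and Hnf4a at 133, 124 and 125 RPKM in DM-aKG and 162, 154 and 162 RPKM in control. DM-aKG replicate 1 was again the treated library nearest to the controls. Among related adhesion genes below the filter, Nectin4 was at 0.52, 0.58 and 0.58 RPKM in DM-aKG and 0.11, 0.17 and 0.13 RPKM in control. The groups did not overlap, and the gene was picked for mention after their values were seen.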
